A study of Mus musculus with 6 samples.

Results

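The endothelial transcription factor genes Erg, Fli1, Ets1, Sox7, Sox17, Sox18, Tal1, Gata2, Klf2 and Klf4 were described in mouse retina as 10 members chosen by gene symbol out of 22173 genes listed in the deposited values, and all 10 were found. RNA of whole retina was sequenced at postnatal day 17 in 6 libraries of wild-type C57BL/6J pups. OIR stands for oxygen-induced retinopathy: the pups behind the 3 OIR libraries were held in 75% oxygen between day 7 and day 12 and then in room air until day 17. The 3 Control libraries came from pups that stayed in room air from day 7 to day 17. In this model, high oxygen removes growing retinal vessels, and the return to room air leaves a hypoxic retina in which abnormal vessels grow. Nothing in the labels ties a library to its own animal, so each p-value measures the spread between these libraries, which may be technical.

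Endothelial cells line the blood vessels, and no single gene sets their identity. ETS factors such as ERG and FLI1 bind the enhancers of many endothelial genes, SOXF factors act in arterial and lymphatic fate together with Notch and VEGF signalling, and TAL1 and GATA2 serve the shared program of blood and endothelial cells. KLF2 and KLF4 are induced by the shear stress of flowing blood and drive genes of the quiescent vessel wall. Many of these factors are also made outside the endothelium, for example in leukocytes, megakaryocytes, mast cells or smooth muscle.

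Values are RPKM, reads scaled to gene length and to the size of the library, and the whole reads behind them were recovered from the steps in the values. Depth was 36617655 to 38025623 reads in OIR and 35615501 to 37199172 reads in Control. Lens genes took 0.0149% to 0.554% of the reads in OIR and 0.0184% to 6.38% in Control, with the highest shares in OIR 2 and Control 3. Over the 12112 genes with at least 1 RPKM in at least 3 libraries, limma called 1407 higher and 875 lower in OIR (11.6% and 7.22%), so 61.7% of the calls were higher, and 51.3% with median-of-ratios scaling. The counts fell to 513 and 212 without OIR 1, 658 and 265 without Control 1, 697 and 348 without OIR 3, and to 421 lower without Control 2. Endothelial markers were present in all libraries: of 20 tested, 15 were higher and 1, Slco1c1, was lower in OIR, with summed levels of 153.0 to 167.0 RPKM in OIR and 83.8 to 89.9 RPKM in Control. Of the 20, 3 reached 1 RPKM in 3 libraries through OIR alone (Icam2, Robo4 and Clec14a). In a fit without that limit, 15 were higher and 1 was lower as well. Whole retina cannot show whether a value differs because of the number of cells of a type or because of the RNA per cell.

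The start regions of the members show which regulatory words lie beside them. Of the 10 members, 5 matched the RefSeq promoter table of build GRCm38.p6, with 9 start regions in all, each running from 250 bases before to 50 bases after a start. These are reference sequences, and the build behind the deposited values is not given in the sources used here. Searched on both strands, CCGGAA, an ETS word, was found in none of the 9 regions and in 14.9% of all 32817 regions of that length. AGATAA or TGATAA, words bound by GATA factors, were found in 1 region of Erg and 1 of Tal1, and in 18.6% of all regions. The MEF2 word, CTA and TAG with any 4 bases between them, was found in Klf2 and in 3.69% of all regions. CACCC, a KLF word, was found in 5 of the 9 regions and in 57.5% of all regions, ACAAT, a SOX word, in 1 and in 31.0%, and the E-box CANNTG in 4 and in 72.3%. In the 3 regions printed here the GATA and MEF2 words overlapped no other word searched. These 3 regions are shown because they hold such a word: for Erg and Tal1, 2 genes that were higher in OIR, and for Klf2, which did not pass the test. Capitals mark the GATA word in Erg and Tal1, which reads TTATCT on the printed strand, at -103 and -205 from the start, and the MEF2 word in Klf2, at -118. A match describes the letters and does not show a bound site.
Erg, chr16:95459299-95459598, minus strand: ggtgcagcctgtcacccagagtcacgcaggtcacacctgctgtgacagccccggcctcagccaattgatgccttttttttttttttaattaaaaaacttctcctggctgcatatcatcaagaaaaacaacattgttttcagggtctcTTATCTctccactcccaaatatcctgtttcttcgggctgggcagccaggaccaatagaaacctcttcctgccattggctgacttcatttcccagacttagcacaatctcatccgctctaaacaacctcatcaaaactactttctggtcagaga
Tal1, chr4:115056176-115056475, plus strand: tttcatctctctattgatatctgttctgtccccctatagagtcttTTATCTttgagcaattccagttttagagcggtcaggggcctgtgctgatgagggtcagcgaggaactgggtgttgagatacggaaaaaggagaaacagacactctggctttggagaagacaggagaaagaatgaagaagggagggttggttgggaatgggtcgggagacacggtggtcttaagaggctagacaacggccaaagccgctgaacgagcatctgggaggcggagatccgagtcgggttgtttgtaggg
Klf2, chr8:72318812-72319111, plus strand: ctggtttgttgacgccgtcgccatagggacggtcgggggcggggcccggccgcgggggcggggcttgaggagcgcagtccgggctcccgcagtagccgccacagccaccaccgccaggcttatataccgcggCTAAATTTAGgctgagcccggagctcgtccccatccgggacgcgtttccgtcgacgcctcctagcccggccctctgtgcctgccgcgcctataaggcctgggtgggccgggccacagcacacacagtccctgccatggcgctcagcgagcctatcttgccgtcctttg

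Most endothelial transcription factor genes were higher in OIR. Erg, Fli1, Ets1, Sox7, Sox18, Tal1 and Gata2 passed a limma test, at ratios of the group means from 2.47 to 3.82. Sox17 missed the threshold on log2(RPKM + 1) and passed on recovered reads. Klf2 and Klf4 passed neither test, and no member was lower.

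These genes were low in whole retina, and 4 of the 10 reached 1 RPKM in 3 libraries. Erg did so through its OIR libraries alone, while Ets1, Sox18 and Klf2 did so in all 6. The other 6 members were therefore taken from a limma fit with no filter over 17953 genes and from limma-voom on recovered reads over the 15033 genes with at least 10 reads in at least 3 libraries. With the filter, Ets1, Sox18 and Erg were higher and Klf2 did not pass, where 11.6% of all genes tested were higher. Since Erg was admitted by its OIR values, this count is a description only. Without it, 7 of 10 were higher and none lower, against 6.73% and 2.95% of all genes, and on recovered reads 8 of 10 were higher and none lower, against 11.3% and 6.98%. The values of 8 members did not overlap between the groups, with OIR above Control, which held for 20.5% of the 17953 genes. The median log2 fold change of the 10 members on recovered reads was 1.35, beside 0.04 over all genes in that fit. Without the filter, the count of members higher was 3 without Control 1, Control 2 or OIR 1, and 5 without Control 3 or OIR 3.

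**Figure D1:**
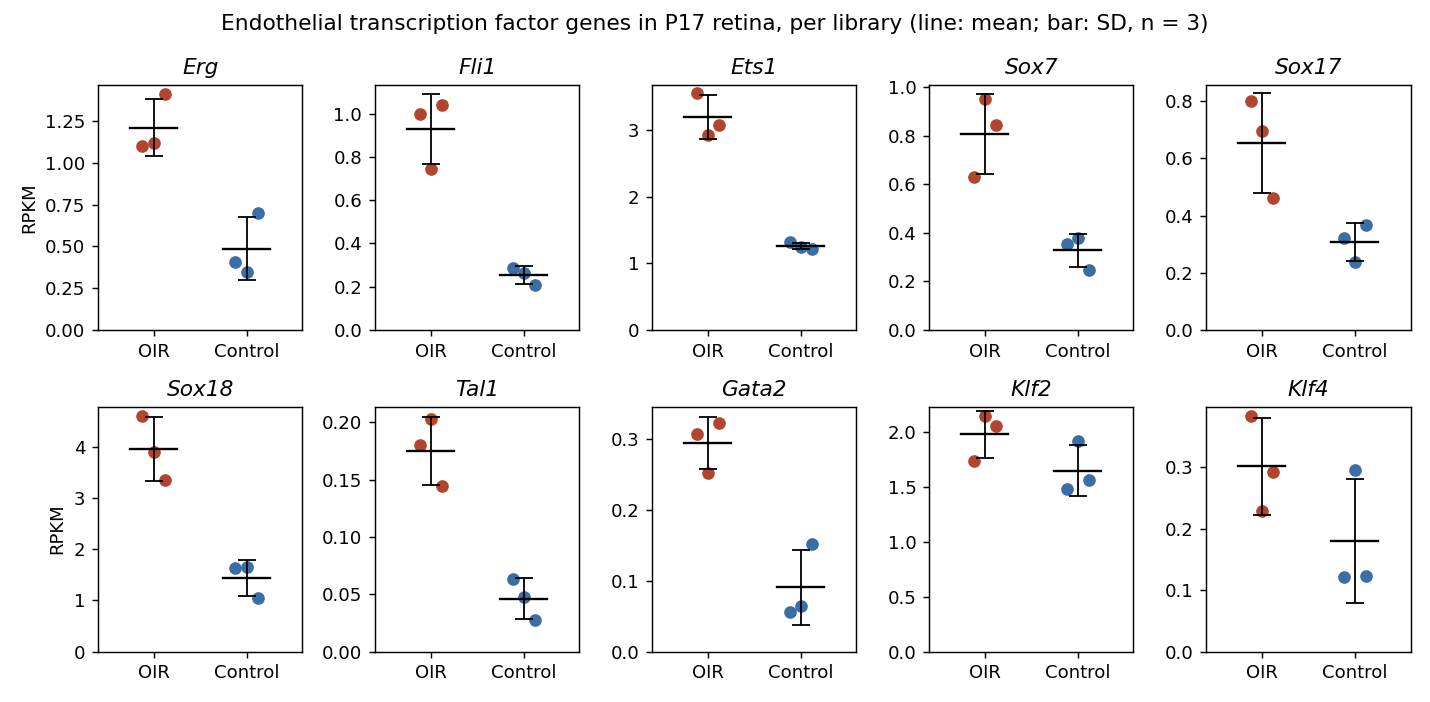
RPKM of each member (vertical axis, starting at 0, scaled for each gene) in the 3 OIR and the 3 Control libraries, 1 point per library, with the mean as a line and the SD as a bar. The OIR points lie above the Control points in every panel except those of Klf2 and Klf4.

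All 3 ETS genes were higher in OIR. Erg, which encodes a factor that maintains endothelial junctions and identity, was at 1.1, 1.12 and 1.41 RPKM in OIR 1, 2 and 3, against 0.405, 0.348 and 0.701 RPKM in Control 1, 2 and 3. The groups did not overlap, and the highest Control value was in Control 3, the library with the most lens reads. On the log2(RPKM + 1) scale it was higher by 0.58 ± 0.111 (SE), and limma gave an adjusted p of 0.0077. Without Control 3 that log2 fold change was 0.68, and the call of Erg held in the filtered fit when any 1 library was left out, at adjusted p from 0.00279 to 0.0351. In the fit with no filter it was lost when Control 1, Control 2, OIR 1 or OIR 3 was left out, at adjusted p of 0.0949, 0.0836, 0.0894 and 0.0853.

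Fli1, the closest relative of Erg and also a factor of megakaryocytes, was at 0.997, 0.746 and 1.04 RPKM in OIR, against 0.287, 0.263 and 0.207 RPKM in Control. All OIR values stood well above all Control values. Behind them lay 115 to 167 reads in OIR and 31 to 45 reads in Control. The ratio of the means was 3.68, and on recovered reads the log2 fold change was 1.86 with a 95% interval from 1.25 to 2.48 (limma-voom adjusted p 0.00169, and 0.0091 with no filter on log2(RPKM + 1)).

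Ets1, the founding member of the family and a factor of endothelial and lymphoid cells, was the most abundant of the 3. It stood at 3.56, 2.93 and 3.08 RPKM in OIR, against 1.32, 1.25 and 1.22 RPKM in Control, so both groups were tight and far apart. It was higher by 0.89 ± 0.0878 (SE) on the log2(RPKM + 1) scale, at a ratio of the means of 2.52 (limma adjusted p 0.000273). Between 579 and 710 reads in OIR and between 234 and 265 reads in Control made Ets1 the most deeply read member.

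Of the SOXF genes, Sox18 and Sox7 were higher in OIR, and Sox17 passed on recovered reads. Sox18, a factor of vessel and lymphatic development, was at 4.6, 3.9 and 3.35 RPKM in OIR, against 1.64, 1.65 and 1.04 RPKM in Control. The groups did not overlap, and Control 3 was the lowest library. It was higher by 1.02 ± 0.126 (SE) on the log2(RPKM + 1) scale (limma adjusted p 0.000973). With no filter its adjusted p was 0.0125, and 0.0542 without OIR 1. Sox18 and Ets1 overlapped in level in OIR, and in Control Klf2, Sox18 and Ets1 formed a chain of overlapping values.

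Sox7, which acts beside Sox17 and Sox18 in vessel growth, was at 0.63, 0.953 and 0.845 RPKM in OIR, against 0.354, 0.38 and 0.249 RPKM in Control. The groups did not overlap, and OIR 1 was the lowest OIR library. Its log2 fold change was 1.29 on recovered reads (limma-voom adjusted p 0.0127) and 0.44 on log2(RPKM + 1) with no filter (limma adjusted p 0.0258). With no filter, leaving out Control 1, 2 or 3 or OIR 3 ended the call, at adjusted p of 0.0884, 0.074, 0.0602 and 0.0853.

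Sox17, a factor of arterial identity, was at 0.801, 0.696 and 0.46 RPKM in OIR, against 0.32, 0.236 and 0.368 RPKM in Control. The smallest gap between the groups was that between OIR 3 and Control 3. On log2(RPKM + 1) it did not pass, with a log2 fold change of 0.33, a 95% interval from 0.13 to 0.54 and a limma adjusted p of 0.056. On recovered reads the log2 fold change was 1.06, with an interval from 0.39 to 1.73 and a limma-voom adjusted p of 0.0335. Without OIR 3 it passed on log2(RPKM + 1) as well, at an adjusted p of 0.0442 with no filter.

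Tal1 and Gata2 were the least abundant members. Tal1, a helix-loop-helix factor needed for blood formation, was at 0.18, 0.203 and 0.144 RPKM in OIR, against 0.063, 0.0474 and 0.0274 RPKM in Control. Its counts were 34, 38 and 28 reads in OIR and 12, 9 and 5 reads in Control, so every OIR library held more reads than any Control library although the numbers were small. The log2 fold change on recovered reads was 1.92, with a 95% interval from 0.91 to 2.93 (limma-voom adjusted p 0.0151). On log2(RPKM + 1) with no filter it was 0.17, since the added 1 exceeds the level itself (limma adjusted p 0.0237), and that call ended without Control 1, 2 or 3 or OIR 1, at 0.0741, 0.0779, 0.054 and 0.0926.

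Gata2, a zinc finger factor of blood stem cells, mast cells and endothelium, was at 0.307, 0.252 and 0.322 RPKM in OIR, against 0.0561, 0.0643 and 0.151 RPKM in Control. The counts were 38, 31 and 41 reads in OIR and 7, 8 and 18 reads in Control, and the highest Control library was again Control 3. On recovered reads the log2 fold change was 1.79, with a 95% interval from 0.8 to 2.79 (limma-voom adjusted p 0.019). With no filter on log2(RPKM + 1) the limma adjusted p was 0.0237, and the call ended without Control 1, Control 2, OIR 1 or OIR 3, at 0.0895, 0.082, 0.0944 and 0.0811.

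Neither KLF gene passed a test. Klf2, the flow-induced factor that drives the nitric oxide synthase gene Nos3, was at 1.74, 2.15 and 2.06 RPKM in OIR, against 1.48, 1.92 and 1.56 RPKM in Control. OIR 1 lay below Control 2, so the groups overlapped. Its log2 fold change was 0.17, with a 95% interval from -0.04 to 0.39 and a limma adjusted p of 0.245, and on recovered reads the interval ran from -0.18 to 0.71. That upper bound lies under the 1.33 of Ets1 on the same scale, and 117 to 143 reads in OIR and 100 to 129 reads in Control lay behind Klf2. The difference between the 2 genes was not tested.

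Klf4, a flow-induced factor that also acts in smooth muscle and in pluripotent cells, was at 0.383, 0.228 and 0.292 RPKM in OIR, against 0.121, 0.296 and 0.123 RPKM in Control. Control 2 lay above 2 of the 3 OIR libraries, while the other Controls lay below all of them. Its log2 fold change on recovered reads was 0.83, with a 95% interval from 0.05 to 1.62 (limma-voom adjusted p 0.126), and the limma adjusted p with no filter was 0.24. A change of Klf4 as large as that of Sox7 lies inside this interval.

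**Figure D2:**
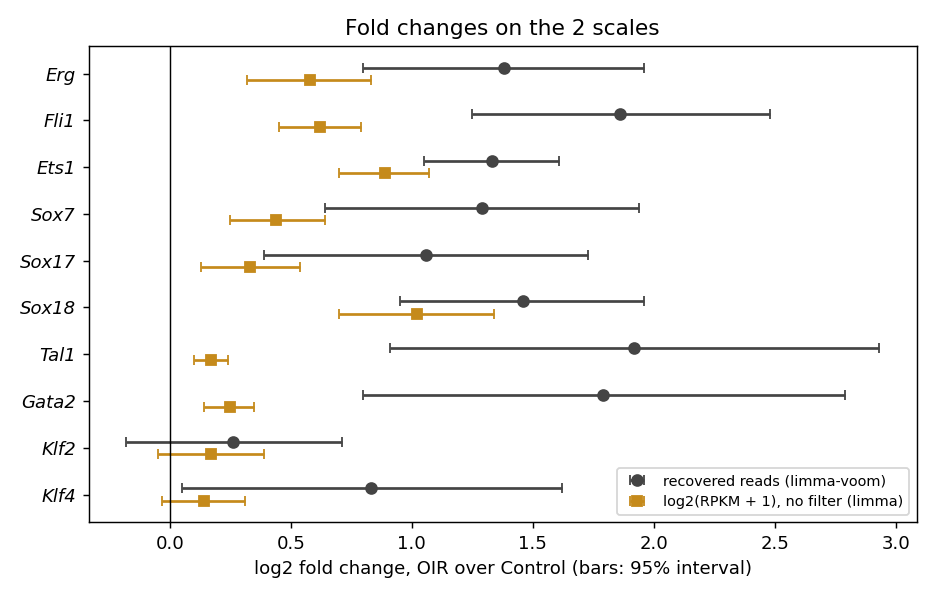
Log2 fold change of OIR over Control for each member, with its 95% interval, on recovered reads by limma-voom (circles) and on log2(RPKM + 1) with no filter by limma (squares). The squares lie closer to 0 for low genes such as Tal1, at 0.17 against 1.92 on recovered reads, and the intervals of Klf2 include 0 on both scales.

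By level per length, the order of the members in OIR was Sox18, Ets1, Klf2, Erg, Fli1, Sox7, Sox17, Klf4, Gata2 and Tal1, with means from 3.95 to 0.175 RPKM. Neighbours whose OIR values overlapped were Sox18 with Ets1, Fli1 with Sox7, Sox7 with Sox17, and Klf4 with Gata2. In Control the order was Klf2, Sox18, Ets1, Erg, Sox7, Sox17, Fli1, Klf4, Gata2 and Tal1, with means from 1.65 to 0.046 RPKM, and among neighbours Ets1 and Erg did not overlap. Summed over the family, the ETS members were at 4.8 to 5.65 RPKM in OIR and 1.86 to 2.12 RPKM in Control, and the SOXF members at 4.65 to 6.03 RPKM in OIR and 1.66 to 2.32 RPKM in Control. The sum of Klf2 and Klf4 was 2.13 to 2.38 RPKM in OIR and 1.6 to 2.21 RPKM in Control.

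The members were then set beside other endothelial genes, to describe whether they moved with them. The geometric mean of 11 endothelial genes (Pecam1, Cdh5, Tie1, Tek, Esam, Egfl7, Eng, Icam2, Clec14a, Cd93 and Ptprb) was 4.96, 4.55 and 4.6 RPKM in OIR, against 2.14, 2.15 and 2.09 RPKM in Control, a ratio of 2.21. With no pseudocount, Klf2 was at 35.2%, 47.2% and 44.7% of this mean in OIR, against 69.0%, 89.2% and 74.7% in Control. Every OIR library lay below every Control library, and the ratio of Klf2 to the other endothelial genes was 0.544 times that of Control. Fli1 lay on the other side, at 20.1%, 16.4% and 22.7% in OIR and 13.4%, 12.2% and 9.89% in Control. Tal1 and Ets1 also did not overlap, Tal1 at 3.13% to 4.45% in OIR and 1.31% to 2.94% in Control, and Ets1 at 64.3% to 71.7% in OIR and 58.2% to 61.5% in Control. In Erg, Sox7, Sox17, Sox18, Gata2 and Klf4 the groups overlapped with no pseudocount, so their OIR and Control libraries were not set apart on this scale. In an exact two-sided permutation test over the 6 libraries the smallest p that 3 against 3 allows is 0.1, reached by Klf2, Fli1, Tal1 and Ets1, with 0.25 adjusted over the 10 members, so the test could not reach 0.05.

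On log2(RPKM + 1), the scale stated for this comparison, the difference of Klf2 from the other endothelial genes was -0.67 (exact permutation p 0.1, adjusted 0.143). Every OIR library of Klf2 again lay below every Control library, but on this scale that was not particular to Klf2. Klf4, Tal1, Gata2, Sox17, Sox7 and Fli1 were at -0.7, -0.67, -0.59, -0.51, -0.4 and -0.22 (exact permutation p 0.1, adjusted 0.143 for each). In these, too, every OIR library lay below every Control library. Erg, Ets1 and Sox18 were at -0.26, 0.04 and 0.18 (exact permutation p 0.2, 0.2 and 0.3). The added 1 shrinks the low members more than the 11 other genes, and Erg, Fli1, Sox7, Tal1 and Gata2 were negative on that scale and positive without a pseudocount. Ets1 and Sox18 were positive and Klf2, Klf4 and Sox17 were negative on both. Of the 11 genes, 9 were higher in OIR and 2, Tek and Ptprb, did not pass, and 8 are also on the list of ETS target genes. Icam2 and Clec14a passed the filter through their OIR libraries alone, and with no filter 9 of the 11 were higher as well.

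**Figure D3:**
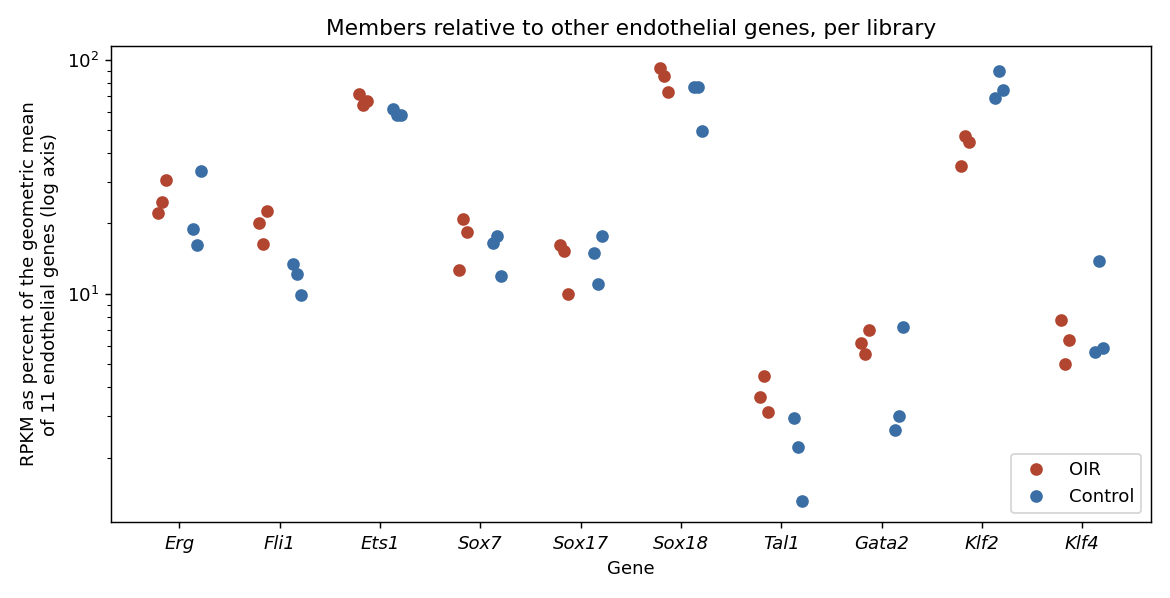
RPKM of each member as a percent of the geometric mean RPKM of 11 other endothelial genes (log axis), 1 point per library, OIR left of Control for each gene. Klf2 lies at 35.2% to 47.2% in OIR and 69.0% to 89.2% in Control, and every other member overlaps between the groups or lies higher in OIR.

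Of 17 tested genes that ETS factors are known to control in endothelium, 15 were higher and none was lower, with a median log2 fold change of 0.84 beside 0.03 over all genes, and the count was 13 to 15 when any 1 library was left out. Of the 17, 5 passed the filter through their OIR libraries alone (Icam2, Notch4, Mmrn2, Robo4 and Clec14a), and all 17 are in the fit with no filter, where 15 were higher as well. Cdh5, the gene of the junction protein VE-cadherin, was at 6.57, 5.96 and 7.01 RPKM in OIR and 2.14, 2.14 and 2.02 RPKM in Control (limma adjusted p 1.61e-05). Vwf, the gene of von Willebrand factor, was at 4.15, 4.17 and 4.2 RPKM in OIR and 1.19, 1.04 and 1.26 RPKM in Control (limma adjusted p 1.61e-05). The groups were far apart for both. Tie1, an orphan receptor gene of the angiopoietin system, and Emcn, the gene of the sialomucin endomucin, were higher by 1.16 and 0.97 on the log2 scale. Tek, the gene of the angiopoietin receptor TIE2, was at 1.52, 1.19 and 1.18 RPKM in OIR and 1.3, 1.3 and 1.55 RPKM in Control, with an adjusted p of 0.737, and Flt1 was also not past the threshold, at 0.103. Of these 17 genes, 14 are among the endothelial markers as well.

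Of 10 genes placed downstream of SOXF factors, 6 were higher and none was lower, with a median log2 fold change of 0.35. Dll4, the Notch ligand gene of tip cells and arteries, was at 1.57, 1.3 and 2.19 RPKM in OIR and 0.588, 0.726 and 0.498 RPKM in Control (limma adjusted p 0.00415). Its receptor gene Notch1 was at 8.57, 6.98 and 9.95 RPKM in OIR and 4.92, 5.83 and 4.46 RPKM in Control (limma adjusted p 0.00799). Both genes were higher in every OIR library than in any Control library. Cldn5, a tight-junction gene, and Cdh5 were higher as well. The arterial ligand gene Efnb2 was not past the threshold, at an adjusted p of 0.263, nor was Prox1, a lymphatic factor gene that retinal neurons and glia also express, at 0.0502. Prox1 was 1 lower gene of this list with median-of-ratios scaling, with lens reads removed, without both lens-rich libraries and without OIR 2.

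Of 5 tested genes that KLF2 and KLF4 are known to induce, 1 was higher and none was lower, Cldn5. It is also on the ETS and SOXF lists, and the median log2 fold change was -0.03. Nos3, which makes endothelial nitric oxide, was at 2.82, 2.19 and 2.23 RPKM in OIR and 1.9, 2.12 and 1.51 RPKM in Control (limma adjusted p 0.113). S1pr1, the gene of a receptor that stabilises vessels, was at 12.2, 11.9 and 8.86 RPKM in OIR and 14.6, 16.4 and 12.5 RPKM in Control. The values of Nos3 and S1pr1 each did not overlap, in opposite directions, and S1pr1 had an adjusted p of 0.0698, and of 0.0489 with median-of-ratios scaling. Thbd, the gene of the anticoagulant receptor thrombomodulin, lay under the filter at 0.735, 0.764 and 0.99 RPKM in OIR and 0.484, 0.544 and 0.521 RPKM in Control, with a limma-voom adjusted p of 0.0635.

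Among 5 tested genes that KLF factors are known to restrain, 2 were higher and none was lower, with a median log2 fold change of 0.42. Angpt2, the gene of a TIE2 ligand made by activated endothelium, was at 6.13, 4.06 and 8.92 RPKM in OIR and 2.41, 1.82 and 2.02 RPKM in Control (limma adjusted p 0.0248). Leaving out Control 1, Control 2 or OIR 1 ended the call of Angpt2, at adjusted p of 0.0762, 0.0914 and 0.115, and the count was then 1, as it was with limma-voom at 0.0521. With no filter, 2 of all 8 listed genes were higher. Dll4 and Spi1 passed the filter through their OIR libraries alone. Angpt2 responds to hypoxia as well, and the part of KLF factors in its level was not tested. Of 10 tested genes of the MEK5, ERK5 and CCM pathway upstream of KLF2, 3 were higher, Heg1, Mapk7 and Mef2d, at log2 fold changes of 0.45, 0.37 and 0.3. This count was 0 without Control 1, OIR 1 or OIR 3 and 1 without Control 3. Mef2d was at 136.0, 117.0 and 128.0 RPKM in OIR and 106.0, 114.0 and 89.1 RPKM in Control, far above the geometric mean of the 11 endothelial genes. Which cell types lay behind the levels of the KLF-induced and KLF upstream genes was not tested.

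**Figure D4:**
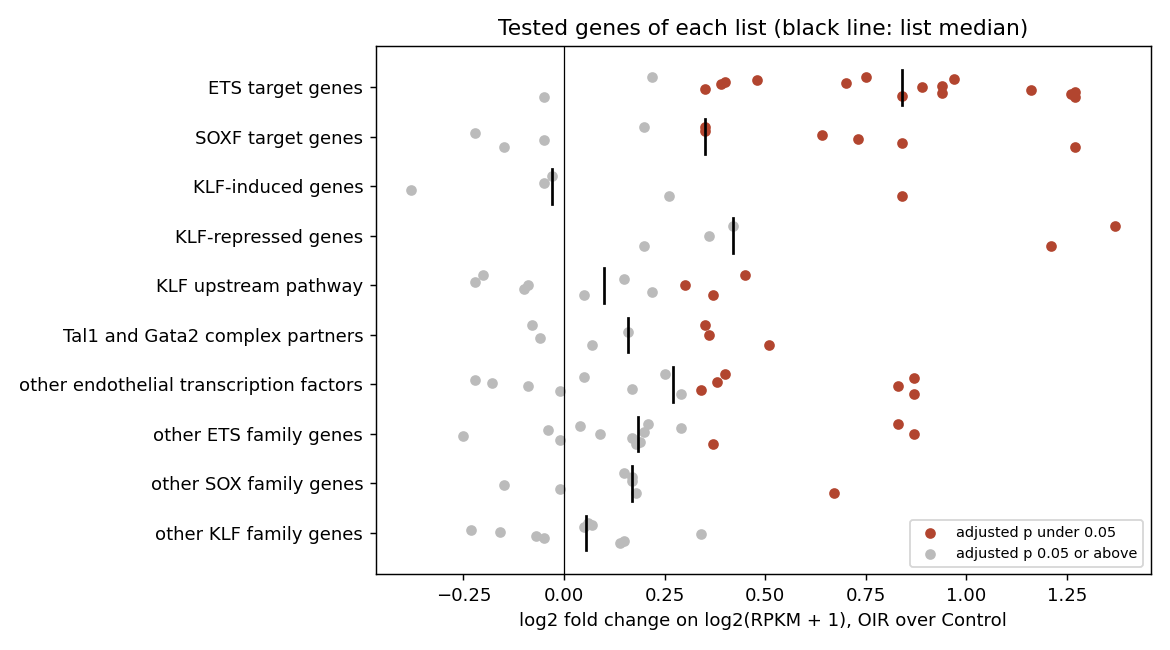
Log2 fold change of OIR over Control on log2(RPKM + 1) for the tested genes of each list, 1 point per gene, with those at an adjusted p under 0.05 in red and the list median as a black line. The ETS target genes lie mostly to the right, with a median of 0.84, and the KLF-induced genes lie around 0, with a median of -0.03.

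Of 7 tested partners of TAL1 and GATA2, 3 were higher and none was lower, with a median log2 fold change of 0.16. Lmo2, the bridging protein gene of the TAL1 complex, was at 3.73, 3.49 and 3.33 RPKM in OIR and 2.21, 2.18 and 2.11 RPKM in Control (limma adjusted p 0.00281), with no overlap. The E-protein gene Tcf3 and the GATA cofactor gene Zfpm1 were higher by 0.36 and 0.35 on the log2 scale, and both of these calls ended without Control 1 or OIR 1, which left a count of 1. The call of Zfpm1 also ended without Control 3, OIR 3 or both lens-rich libraries, at limma adjusted p of 0.0667, 0.0701 and 0.05. The other E-protein genes Tcf4 and Tcf12 did not pass, at adjusted p of 0.655 and 0.15. Lyl1, a close relative of Tal1 that lay under the filter, was at 0.737, 0.58 and 0.616 RPKM in OIR and 0.322, 0.162 and 0.199 RPKM in Control (limma-voom adjusted p 0.0204).

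Of 14 other endothelial transcription factor genes that could be tested, 6 were higher and none was lower, with a median log2 fold change of 0.27. Bcl6b, a repressor gene found in endothelium, was at 1.25, 1.46 and 1.25 RPKM in OIR and 0.329, 0.262 and 0.326 RPKM in Control, a ratio of 4.32 (limma adjusted p 0.000389). Meox1, a homeobox gene, was at 1.86, 2.04 and 1.66 RPKM in OIR and 0.633, 0.525 and 0.534 RPKM in Control (limma adjusted p 0.000327). Both passed the filter through their OIR libraries alone, as did Heyl, and with no filter 6 of all 28 listed genes were higher. Elk3, an ETS repressor gene of angiogenesis, was at 3.74, 2.91 and 3.01 RPKM in OIR and 1.31, 1.18 and 1.4 RPKM in Control (limma adjusted p 0.000454), with no overlap between the groups. Ppard, Heyl and Epas1 were the other higher genes, at log2 fold changes of 0.40, 0.38 and 0.34. The call of Heyl ended with median-of-ratios scaling (adjusted p 0.066), with lens reads removed (0.0656), and in 5 of the 6 fits that left out 1 library, all but that without OIR 3. Without OIR 1 the count was 3, and 4 without Control 1, Control 3 or OIR 3. Another 14 genes of this list lay under the filter, and on recovered reads 9 of the 23 genes with enough reads were higher.

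Other genes of the same families were counted too. Of 14 other tested ETS genes, 3 were higher, Elk3, the myeloid factor gene Spi1 and Ets2. Spi1 passed the filter through its OIR libraries alone. The call of Ets2 ended without Control 2, Control 3, OIR 1 or OIR 3, at limma adjusted p of 0.0532, 0.0629, 0.0808 and 0.11. Of 7 other SOX genes, Sox9, a factor of Müller glia, was higher. Of 10 other KLF genes, none passed in either direction, with a median log2 fold change of 0.05, and Klf10 and Klf6 had adjusted p of 0.0967 and 0.233. With limma-voom 1 was lower, Klf12, at an adjusted p of 0.0482. The 5 other GATA genes lay far under the filter, with summed levels of 0.0767 to 0.0947 RPKM in OIR and 0.0463 to 0.189 RPKM in Control.

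Markers of some other cell types that make some of these factors moved with the groups. Of 14 tested microglia and macrophage markers, 12 were higher, with sums of 99.8 to 138.0 RPKM in OIR and 36.6 to 40.2 RPKM in Control. The myeloid ETS gene Spi1 was at 1.62, 1.16 and 2.22 RPKM in OIR and 0.336, 0.589 and 0.526 RPKM in Control. C1qa, a complement gene of microglia, was at 22.5, 17.6 and 22.1 RPKM in OIR and 5.61, 5.36 and 5.68 RPKM in Control. Among 11 tested pericyte and smooth muscle markers 8 were higher, with sums of 84.4 to 111.0 RPKM in OIR and 34.4 to 58.8 RPKM in Control. Rgs5, a pericyte gene, was at 47.9, 35.8 and 39.3 RPKM in OIR and 17.8, 15.6 and 18.2 RPKM in Control. All 4 tested haemoglobin genes were higher, a count that was 0 without OIR 1, 1 without Control 1 or Control 2 and 2 without Control 3 or OIR 3, and 0 with the replicate number as a block, while Gata1 and Klf1, which mark red cell precursors, lay under the filter, Gata1 at or below 0.0131 RPKM in every library. The 9 lymphocyte and 8 mast cell and platelet markers all lay under the filter, with sums of 1.14 to 2.16 and 1.42 to 1.72 RPKM in OIR and 0.48 to 1.0 and 0.487 to 0.555 RPKM in Control. Cd3d, of T cells, and Ppbp, of platelets, were at 0 in all 6 libraries, while the platelet gene Pf4 was at 0.782, 1.16 and 1.3 RPKM in OIR and 0.229, 0.183 and 0.239 RPKM in Control (limma adjusted p 0.0108 with no filter). On recovered reads, 1 of the 3 lymphocyte markers with enough reads was higher, Cd8a (limma-voom adjusted p 0.03, limma 0.0636 with no filter). Its values were 0.631, 0.532 and 0.975 RPKM in OIR and 0.12, 0.345 and 0.359 RPKM in Control. Of 19 tested lens genes, none passed in either direction. The part of these cells in the levels of Fli1, Ets1, Tal1, Gata2 and Klf4 was not tested.

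Klf2 and Klf4 are rapidly induced genes, and so the immediate early genes were set beside them. Of 10 tested, 7 were higher and none was lower, with a median log2 fold change of 0.65. Fos was at 23.6, 17.1 and 24.8 RPKM in OIR and 11.4, 11.6 and 8.73 RPKM in Control (limma adjusted p 0.00847), and Nr4a1 was at 9.75 to 14.4 RPKM in OIR and 6.98 to 7.57 RPKM in Control (limma adjusted p 0.00635). The count was 4 without Control 1 and 2 without OIR 1.

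Over the 6 libraries, the 5 tested genes whose centred log2(RPKM + 1) profile lay closest to the mean profile of Erg, Ets1, Sox18 and Klf2 were Syce2, Stag3, St6galnac2, Slco2b1 and Gatm. Their root mean square difference from that profile was 0.0475 to 0.0558 on the log2 scale, among 12108 genes compared. Slco2b1, a transporter gene, was at 2.76, 2.46 and 2.77 RPKM in OIR and 1.39, 1.26 and 1.38 RPKM in Control. With 6 libraries in 2 groups, a profile of this kind is mainly the difference between the groups.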

How the data were processed

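RNA of 6 retina libraries was analysed as 3 OIR and 3 Control libraries, grouped by sample title. The deposited files hold RPKM values by the authors, 1 for each symbol in each library. Per the submitters' processing notes, TopHat2 2.0.12 and Bowtie2 2.0.6 were used. The sources used here name no build, annotation, counter or strand, and the library protocol in the labels describes another species. Antisense and overlapping genes therefore cannot be told apart from the members.

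Whole reads were recovered: ratios of low values gave relative depth, GENCODE M21 transcript lengths gave absolute depth through 159 length matches, and each gene took the smallest length that made its 6 values whole within 0.02 of a read, which succeeded for all 12112 tested genes. Genes with at least 1 RPKM in at least 3 libraries were tested with limma 3.58.1 in R 4.3.3 (trend, robust) on log2(RPKM + 1), group as the only term, two-sided, Benjamini-Hochberg adjusted over all genes tested, threshold 0.05. Adjusted p-values are from limma or limma-voom, except those of the exact permutation test on levels relative to the endothelial genes. The deposited RPKM values are not counts, so the main test is on the log scale. The added 1 understates changes of low genes, so limma-voom on recovered reads is given beside it, with a filter of 10 reads chosen after seeing the data. Ratios are of group means. The fit was tested on simulated data.

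Members and gene lists were chosen with earlier results of these data known. The text names every member and, from each list, up to 4 tested genes with the smallest adjusted p, or all that passed where 4 or fewer did. Others (Tek, Flt1, Efnb2, Prox1, Nos3, S1pr1, Thbd, Tcf4, Tcf12, Lyl1, Slco1c1, Spi1, Klf10, Klf6, Klf12, Acta2, Tagln, Myh11, Pf4, Cd3d, Cd8a, Ppbp and the red cell genes under the filter) were chosen after their values were seen. Some genes of the lists are not reported here by name.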

Additional observations from a re-analysis of the deposited data

How the results depend on the processing

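No member changed direction under any alternative to its fit: of 134 member values, 116 kept their side of the threshold, 15 no longer passed and 3 newly passed. Fli1 and Ets1 kept their call in all of these and with no filter. With no filter and 1 library left out, Erg lost its call in 4 of 6 fits and Sox18 in 1. Erg kept it in the filtered fits, which it entered through its OIR libraries alone. Sox7, Tal1 and Gata2 lost their call in several fits with fewer libraries, and Sox7 and Tal1 also with the block, and Sox17 passed on recovered reads, at 1.06 on the log2 scale by limma-voom with or without the read filter.

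The count of members higher was 3 with the filter, 7 with no filter and 8 with limma-voom over genes of at least 10 reads. The filter left 4 members to test, and the other fits all 10. For 8 against 7 the cause was not tested. Over all genes, leaving out 1 library gave 513 to 1754 higher and 212 to 1293 lower genes, 1943 genes fell in OIR when both lens-rich libraries were left out, and 529 with no filter. Leaving out 1 library gave 1 to 3 higher TAL1 and GATA2 partners, 3 to 7 higher and 0 to 1 lower other endothelial factors, 0 to 1 lower SOXF targets, 1 to 2 higher KLF-repressed genes, 0 to 3 higher genes upstream of KLF, and 0 to 1 other KLF genes in each direction. Limma-voom with 10 reads called 5 partners higher. With median-of-ratios scaling, with lens reads removed and without both lens-rich libraries, 1 gene was lower among the other endothelial factors, the SOXF targets, the KLF-induced genes and the KLF upstream genes. Among other KLF genes, 1, 1 and 2 genes were lower under these 3 settings, and without the lens-rich libraries 1 was higher and 1 other ETS gene was lower. By limma-voom with either filter, 1 KLF-repressed gene was higher, and 1 gene was lower among KLF upstream, other ETS and other KLF genes. With no filter, 0 KLF upstream genes were higher.

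Relative to the endothelial genes, the difference turned to 0.11 for Erg and 0.44 for Fli1 with a pseudocount of 0.1, and with none to 0.23 for Erg, 0.73 for Fli1, 0.16 for Sox7, 0.86 for Tal1 and 0.69 for Gata2. The choice of pseudocount alone differs between these values. The groups share replicate numbers, but deviations of same-numbered libraries correlated at 0.222, -0.44 and -0.414, and no library correlated best with its own number. With the replicate number as a block, 1 KLF-induced gene was lower, 0 haemoglobin genes were higher in place of 4, Heyl no longer passed (adjusted p 0.0569), and 5 members were higher with no filter. The number of libraries limits all calls, and depth limits Tal1 and Gata2, with 5 to 18 reads per Control library.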

Other observations

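Shares of each family's summed level overlapped between the groups for Ets1, Sox18 and Klf2. Ets1 held 55.7% to 62.9% of the summed RPKM of the ETS members in OIR and 57.3% to 67.2% in Control. Fli1 held 15.6% to 18.9% in OIR and 9.74% to 14.3% in Control, and these shares did not overlap. Sox18 held 70.3% to 76.3% of the SOXF members in OIR and 62.8% to 72.8% in Control. Klf2 held 82.0% to 90.4% of the summed Klf2 and Klf4 level in OIR and 86.6% to 92.7% in Control. These shares were not tested.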
